A study of Mus musculus with 7 samples.

Results

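The SLC30 zinc transporter family was followed in islets of pregnant mice through its 10 members, SLC30A1 to SLC30A10, taken as the rows of the gene table with those names. All 10 were present among 34082 gene names. The islets came from 7 C57BL/6 dams on day 15 of pregnancy after mating with wild type males, with 1 library per dam from 100 to 200 islets. By the study's methods, isolated islets were kept overnight in culture medium with bovine serum, so the values are those of cultured islets. In 4 βPrlR+/- mice a floxed Prlr exon was removed in cells expressing Pdx1CreER, a tamoxifen-inducible Cre under the Pdx1 promoter, after tamoxifen. In 3 Prlr+/- mice 1 Prlr allele was missing from every tissue, and these mice carried no Cre and received no tamoxifen. Genotype, Cre and tamoxifen therefore cannot be told apart. By the labels, no mouse with intact Prlr was analysed here, and β-cells of either group lack Prlr at least in part. The labels place the knock-out of the 4 mice in β-cells, but their sample titles read CkoWt, a name that is not explained. The labels give the age as 3 to 4 months and call the β-cell deletion homozygous, whereas the study's methods give an older age and its text calls the deletion heterozygous.

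SLC30 proteins (ZnT) carry zinc out of the cytosol, either across the plasma membrane or into an organelle, and SLC39 proteins (ZIP) carry it the other way. β-cells hold much zinc because insulin is stored in its granules as zinc-bound hexamers, and SLC30A8 (ZnT8) is the transporter that loads those granules. SLC30A5 and SLC30A6 work as a heterodimer, and SLC30A7 as a homodimer, in the early secretory pathway, where they supply zinc to secreted and membrane enzymes. SLC30A1 exports zinc at the plasma membrane.

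Values are TPM, a share of all transcripts corrected for transcript length, so that genes can be compared. The values of each mouse sum to 1000000 within 1, and INS and Ins1 took 46.1% to 53.2% of that sum in the βPrlR+/- mice and 54.0% to 58.9% in the Prlr+/- mice (exact permutation test, p = 0.0286, the smallest that 4 mice against 3 allow). Scaled TPM, used below, are TPM over a size factor of 0.882 to 1.11 per mouse, set by the median ratio over genes. TPM keeps no depth, so no counting error can be given. PRLR, the targeted gene, averaged 45.1 ± 8.19 (SD, n = 4) scaled TPM with the βPrlR+/- deletion and 40.8 ± 8.97 (SD, n = 3) with Prlr+/-, summed over its transcripts, so that the floxed exon itself was not measured. The samples carried the insulin, glucagon, somatostatin and pancreatic polypeptide RNA of islets, with acinar RNA beside it: 11 acinar enzyme and factor genes summed to 2021 to 18030 scaled TPM in single mice.

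SLC30A8 was by far the most abundant member. The libraries of βPrlR+/- mice 1 to 4 held 390.0, 391, 367 and 348 scaled TPM of it, and those of Prlr+/- mice 1 to 3 held 327, 379 and 392. The lowest and the highest value both came from Prlr+/- mice, so the groups overlapped fully. The group means were 374 ± 20.8 (SD, n = 4) and 366 ± 34.2 (SD, n = 3). SLC30A8 held 77.1% to 80.7% of the TPM of the whole family in each mouse. It ranked 138 among all gene names by mean TPM and 1 among the 374 solute carrier (SLC) genes in the table, ahead of SLC2A2, the β-cell glucose transporter GLUT2, at a mean of 222 TPM against 371.

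The members below it fell into a middle tier with narrow spreads. SLC30A5 followed at 33.3 ± 1.63 scaled TPM (SD, n = 7), 11.1 times lower than SLC30A8 in the mean. SLC30A9, known from mitochondria and nuclei, was at 26.4 ± 0.874, and SLC30A7 at 12.7 ± 1.27. SLC30A4, a transporter of endosomes and secretory vesicles, was at 9.94 ± 0.482, SLC30A1 at 9.20 ± 0.988 and SLC30A6 at 6.80 ± 0.351. The order held in 7 of 7 mice for each neighbouring pair from SLC30A8 down to SLC30A6 except SLC30A4 and SLC30A1, where SLC30A4 was higher in 5 of 7 and the ranges overlapped.

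**Figure D1:**
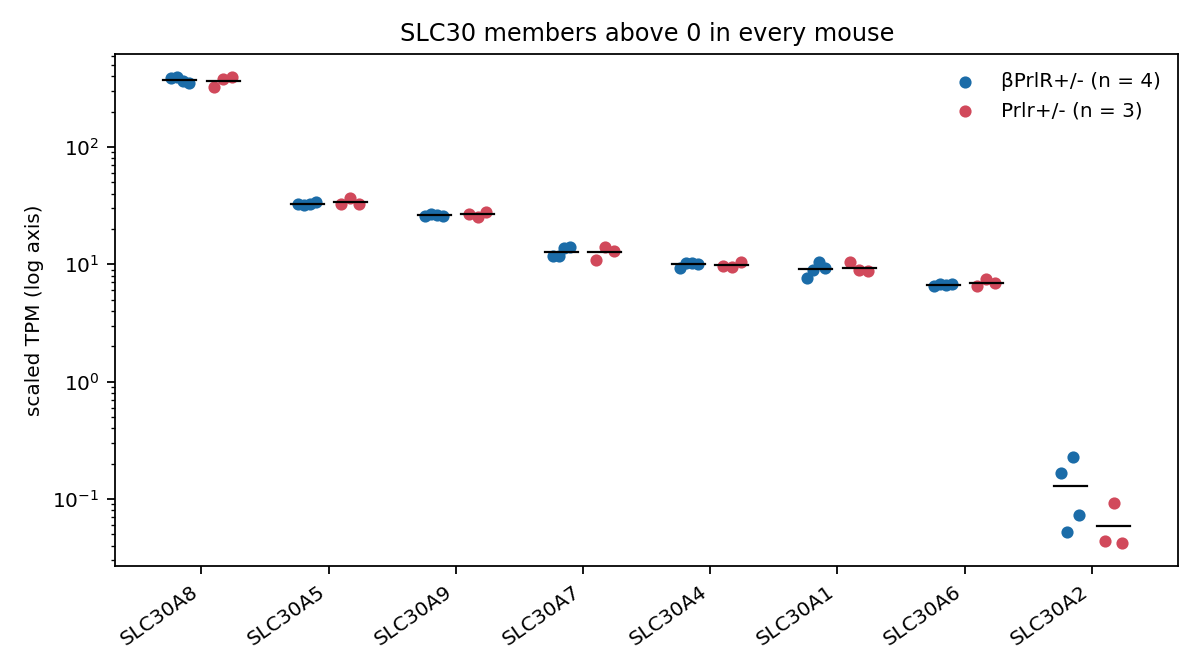
Scaled TPM on a log axis of the 8 members that were above 0 in every mouse, ordered by mean level, with 1 point per mouse and a line at each group mean (blue, βPrlR+/-, n = 4; red, Prlr+/-, n = 3). SLC30A8 lies between 327 and 392 in all mice, 6 members lie between 6.50 and 36.8, and SLC30A2 lies at or below 0.226, with the groups overlapping for each.

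The remaining members were at the edge of detection. SLC30A2 (ZnT2), which loads zinc into secretory vesicles of mammary gland and acinar cells, gave 0.168, 0.0523, 0.226 and 0.0736 scaled TPM for βPrlR+/- against 0.0440, 0.0919 and 0.0422 for Prlr+/-. Its highest values came from βPrlR+/- mice 3 and 1 and Prlr+/- mouse 2, in that order, and these were also the mice with the most acinar marker RNA, at 18030, 17955 and 15082 summed scaled TPM against 2021 to 7803 in the other mice. What acinar RNA contributed to the SLC30A2 value was not tested. SLC30A10, a manganese exporter, was above 0 in 4 of 7 mice and reached 0.0102. SLC30A3 (ZnT3), which loads zinc into synaptic vesicles of neurons, was above 0 in 1 of 7 mice, Prlr+/- mouse 2, at 0.0110. An exact 0 in such a table can be a failed estimate, so these members are described as listed at or near 0.

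Of the 7 members whose mean TPM reached 0.5, none passed the test between the groups (limma with Benjamini-Hochberg adjustment over 14840 genes, adjusted p = 1.0 for each), and none had an unadjusted p under 0.05. Over all genes tested, 0.0674% had an adjusted p under 0.05 and 4.52% an unadjusted one. SLC30A2, SLC30A3 and SLC30A10 were under that limit and were not tested. The log2 differences, Prlr+/- minus βPrlR+/- on log2(scaled TPM + 1), ran from -0.033 for SLC30A8 to 0.058 for SLC30A5, with 4 above and 3 below 0. Their median size was 0.033, beside 0.065 for all genes tested and 0.055 for the 7678 genes with a mean level between those of SLC30A6 and SLC30A8. The groups overlapped for all 7, whereas they did not overlap for 4.95% of the genes tested.

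The intervals show which differences these mice could still hide. For SLC30A8 the 95% interval of the change ran from -15.6% to 13.1% (log2 difference -0.033, standard error 0.090). For SLC30A5 it ran from -5.70% to 14.8%, for SLC30A6 from -6.55% to 15.0% and for SLC30A9 from -6.26% to 11.6%. SLC30A4 had an interval of -10.9% to 10.1%. The widest were those of SLC30A7, -17.1% to 16.2%, and SLC30A1, -13.8% to 22.3%. These percentages are on the scale of TPM + 1 and slightly understate the change of the lower members. An exact permutation test on each of these 7 members gave p from 0.343 for SLC30A5 to 0.857 for SLC30A1 and SLC30A7. With the TPM as deposited all 7 log2 differences were below 0, from -0.18 for SLC30A8 to -0.076 for SLC30A6, a scale on which the median gene stood at -0.12.

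**Figure D2:**
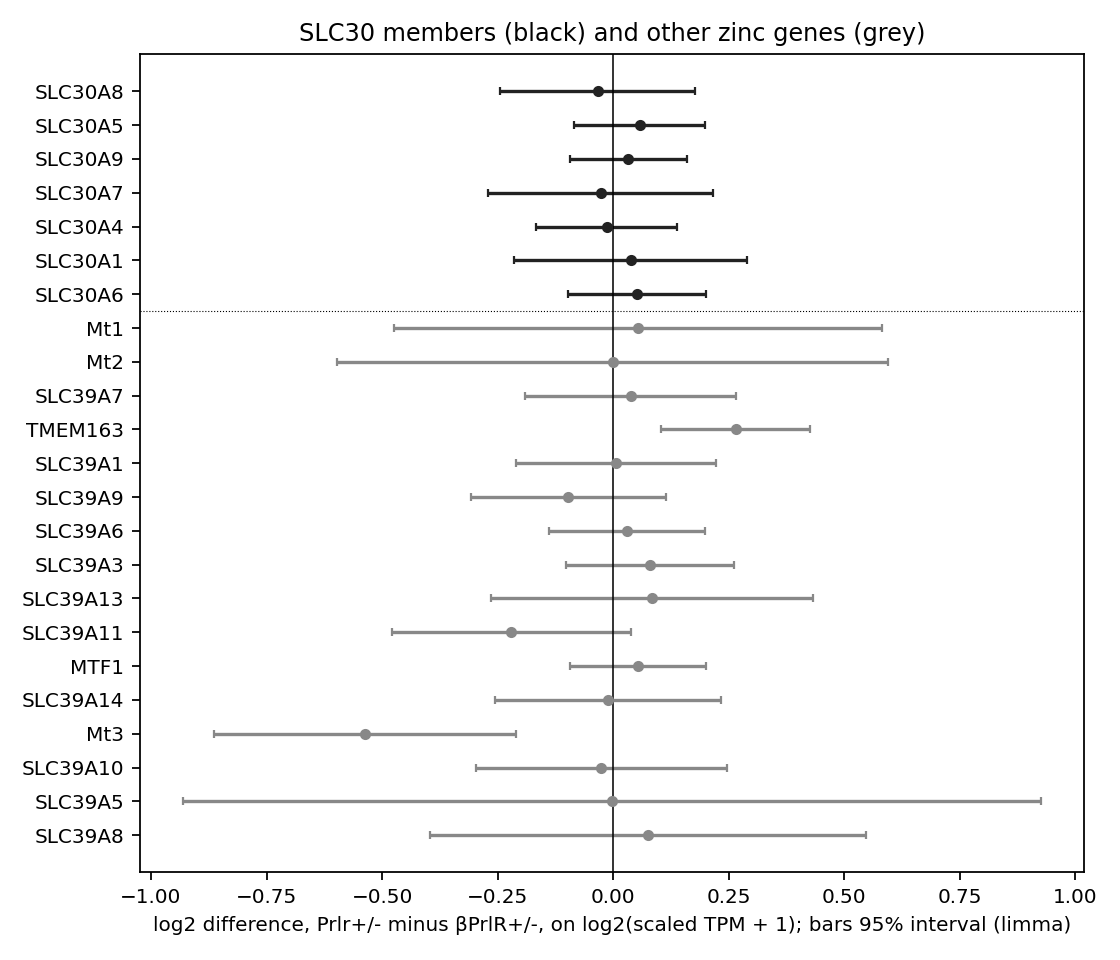
Log2 difference between the groups, Prlr+/- minus βPrlR+/-, with its 95% interval from limma, for the 7 tested SLC30 members (black) and the 16 tested genes of a zinc homeostasis list (grey), each set ordered by level. All 7 members lie within 0.06 of 0 with intervals that span it, and only the intervals of TMEM163 (0.10 to 0.43) and Mt3 (-0.86 to -0.21) leave 0 out, neither with an adjusted p under 0.05.

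SLC30A8 was next set against the insulin RNA whose product it supplies with zinc. Per 1000 insulin TPM, βPrlR+/- islets held 0.699, 0.785, 0.882 and 0.696 SLC30A8 TPM and Prlr+/- islets 0.554, 0.698 and 0.586. The groups overlapped only by βPrlR+/- mouse 4 and Prlr+/- mouse 2. The mean ratio was 0.766 ± 0.0878 (SD, n = 4) against 0.613 ± 0.0756 (SD, n = 3), a log2 difference of -0.32, and 2 of 35 splits of the mice gave as large a difference (two-sided exact permutation test, p = 0.0571). The ratio does not depend on the scaling. The SLC30A8 level itself overlapped between the groups, as given above, and insulin was at 492684 ± 58285 scaled TPM in βPrlR+/- and 600421 ± 63250 in Prlr+/- mice (exact permutation test, p = 0.0857). The other β-cell markers lay on the same side as insulin, with log2 differences from 0.13 for IAPP to 0.71 for MAFA, but none had an adjusted p under 0.05, and MAFA alone had an unadjusted one, with a 95% interval of 0.023 to 1.40. Markers of other islet cells lay on the other side: 5 of 5 α-cell markers (median log2 difference -0.22), 3 of 3 of δ- and PP-cells (-0.22) and 6 of 6 of endothelium (-0.24) were below 0, none with an adjusted p under 0.05, and 1 of the α-cell and 4 of the endothelial markers had an unadjusted one, beside 4.52% of all genes tested. The summed scaled TPM of the δ- and PP-cell markers did not overlap, at 13627 to 16244 in βPrlR+/- and 12101 to 12752 in Prlr+/- mice. Taken alone, SST and PPY of that sum each overlapped, SST at 4336 to 7000 and 4068 to 5004. PPY lay at 7889 to 9833 and 7094 to 8060. Groups did not overlap for 4.95% of the single genes tested, and no such share was taken for sums. The α-cell sums, 14617 to 22171 and 14633 to 15157, and the endothelial sums, 162 to 196 and 137 to 168, overlapped. Acinar, duct, macrophage and fibroblast markers had median differences of 0.10, 0.099, 0.060 and -0.12, with none under 0.05 before or after adjustment. The part of these cell types in the SLC30A8 to insulin ratio was not tested. Against the geometric mean of those 9 β-cell markers, an alternative chosen after seeing the data, SLC30A8 was lower by a log2 difference of -0.41 (exact permutation test, p = 0.0857). In whole islets, fewer cells of a type and less RNA per cell cannot be told apart.

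**Figure D3:**
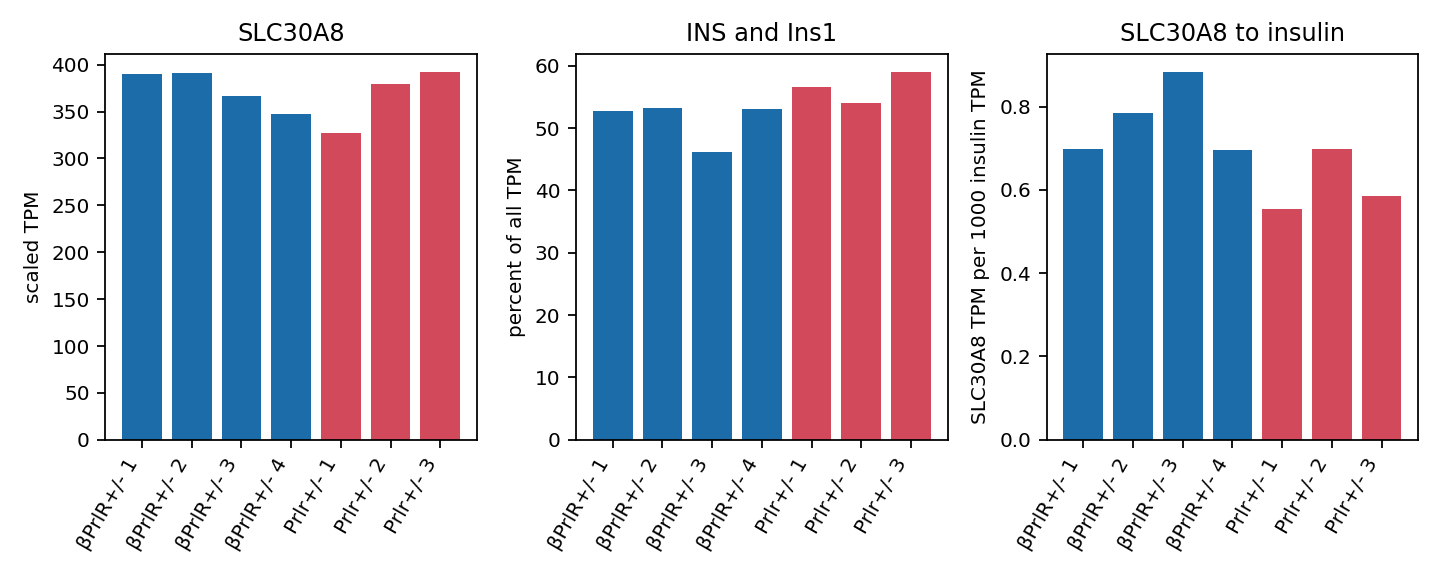
Bars show SLC30A8 in scaled TPM, INS and Ins1 as a percent of all TPM, and SLC30A8 TPM per 1000 insulin TPM, for each of the 4 βPrlR+/- (blue) and 3 Prlr+/- mice (red). SLC30A8 overlaps between the groups, at 348 to 391 and 327 to 392, the insulin share is 54.0% or more in every Prlr+/- mouse and 53.2% or less in every βPrlR+/- mouse, and the ratio ranges from 0.554 to 0.882.

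In the early secretory pathway, SLC30A5 and SLC30A6 kept an almost fixed ratio. SLC30A5 read 32.4, 31.9, 32.6 and 33.7 scaled TPM with βPrlR+/- and 32.7, 36.8 and 32.8 with Prlr+/-. Its partner SLC30A6 read 6.51, 6.75, 6.62 and 6.84, then 6.50, 7.52 and 6.89, in the same order of mice. Prlr+/- mouse 2 had the highest value of both. The ratio of SLC30A5 to SLC30A6 lay between 4.73 and 5.03 in all 7 mice, with means of 4.89 ± 0.109 (SD, n = 4) and 4.89 ± 0.135 (SD, n = 3), and did not separate the groups (exact permutation test, p = 1.0). The SD of its log2 value over the mice was 0.033, the smallest of the 21 pairs of tested members. Among 14434 genes above 0 in every mouse, SLC30A6 ranked 17 by the steadiness of its ratio to SLC30A5, where the median gene had an SD of 0.17. This ranking is a description of ratios within each mouse, which do not depend on the scaling, and steady genes rank high in it whatever their function. SLC30A7 was more variable, with 11.8, 11.8, 13.7 and 14.1 for βPrlR+/- against 10.8, 14 and 13 for Prlr+/-.

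**Figure D4:**
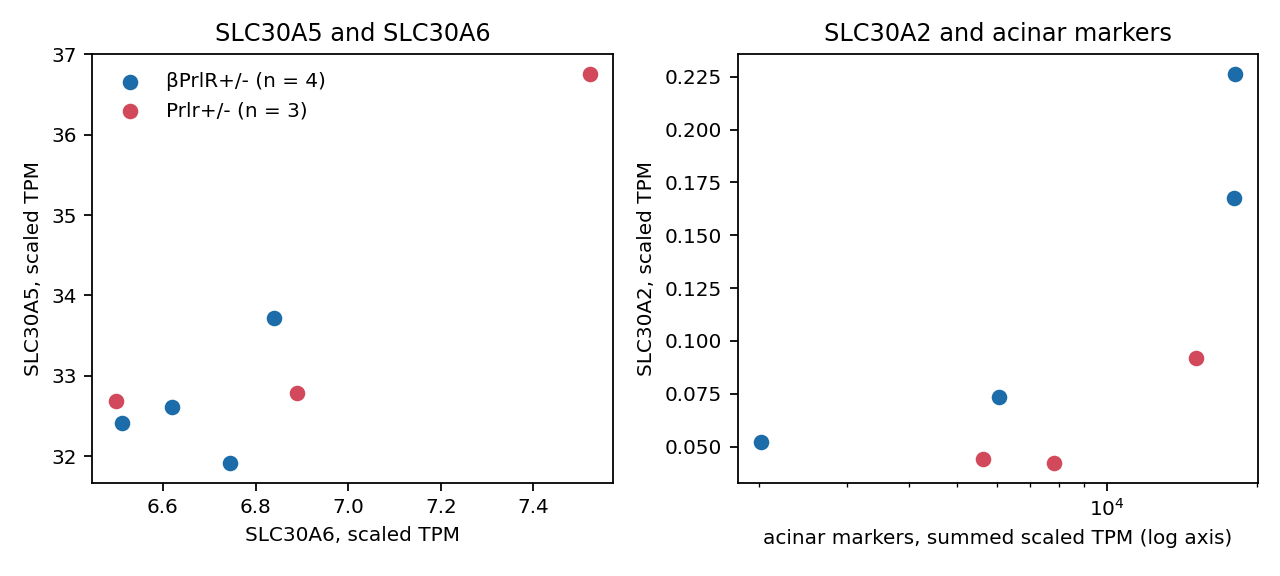
Left, SLC30A5 against SLC30A6, both in scaled TPM, and right, SLC30A2 in scaled TPM against the summed scaled TPM of 11 acinar markers on a log axis, with 1 point per mouse (blue, βPrlR+/-; red, Prlr+/-). Prlr+/- mouse 2 is highest for both partners, and the 3 mice at 15082 or more summed acinar TPM have the 3 highest SLC30A2 values.

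SLC30A1 and the metallothioneins are known targets of MTF1, the zinc-sensing transcription factor that binds metal response elements. Scaled TPM of SLC30A1 were 7.60, 9.02, 10.4 and 9.39 with βPrlR+/- and 10.4, 8.87 and 8.72 with Prlr+/-. The metallothionein Mt1, a cytosolic zinc buffer, stood at 1117, 1793, 1189 and 1463 against 1805, 1087 and 1454. Prlr+/- mouse 1 was highest for both genes, while βPrlR+/- mouse 3 was high for SLC30A1 and low for Mt1. Mt2 ordered the mice much as Mt1 did, from 696 in βPrlR+/- mouse 1 to 1270 in Prlr+/- mouse 1. MTF1 itself was at 5.99 scaled TPM, between 5.73 and 6.49. None of these genes had an adjusted p under 0.05, and the intervals of Mt1 (log2 -0.47 to 0.58) and Mt2 (-0.60 to 0.60) were wide.

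Promoter sequences were read from the RefSeq table of GRCm38.p6, which matched 9 of the 10 members, SLC30A8 being the exception, with a pair of start sites for SLC30A3. The bases printed are -250 to -21 before the start for SLC30A1, the MTF1 target, for the steady partners SLC30A5 and SLC30A6, and for SLC30A10, which was near 0. Capitals mark the metal response element core, searched as TGCACNC and TGCGCNC on both strands, overlaps included.
Slc30a1, chr1:191906531-191906760, + strand: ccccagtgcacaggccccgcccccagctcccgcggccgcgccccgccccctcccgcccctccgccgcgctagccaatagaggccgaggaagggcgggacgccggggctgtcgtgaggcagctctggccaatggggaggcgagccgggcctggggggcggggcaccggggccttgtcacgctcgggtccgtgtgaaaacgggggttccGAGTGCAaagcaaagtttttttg
Slc30a5, chr13:100833448-100833677, - strand: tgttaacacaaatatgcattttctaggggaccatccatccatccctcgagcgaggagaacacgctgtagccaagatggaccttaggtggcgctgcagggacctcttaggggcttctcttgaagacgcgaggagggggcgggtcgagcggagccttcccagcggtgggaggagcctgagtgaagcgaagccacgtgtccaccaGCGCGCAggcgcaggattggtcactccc
Slc30a6, chr17:74395358-74395587, + strand: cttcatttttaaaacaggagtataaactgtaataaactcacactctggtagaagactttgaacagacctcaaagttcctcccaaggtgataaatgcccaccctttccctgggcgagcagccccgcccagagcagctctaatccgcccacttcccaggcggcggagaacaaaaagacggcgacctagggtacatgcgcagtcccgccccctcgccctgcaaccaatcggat
Slc30a10, chr1:185454598-185454827, + strand: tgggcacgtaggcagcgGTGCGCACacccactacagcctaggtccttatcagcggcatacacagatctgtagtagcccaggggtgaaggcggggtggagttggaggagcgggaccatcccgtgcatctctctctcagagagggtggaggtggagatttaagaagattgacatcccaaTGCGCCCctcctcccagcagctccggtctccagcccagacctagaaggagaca

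Over the full window of 300 bases, from 250 before to 50 after the start, the motif occurred 2 times for SLC30A1, 1 time for SLC30A5, 0 times for SLC30A6 and 3 times for SLC30A10, where a pair of matches overlap. Of the 10 member promoters 6 held it, beside 25.7% of all 32851 promoters in the table. SLC30A4, whose promoter is not printed, held 3 as well. A match is only a run of letters. The SLC30A1 window had 36 CpG dinucleotides and 73.0% G and C, the SLC30A5 window 24 and 63.3%, the SLC30A6 window 18 and 55.7% and the SLC30A10 window 12 and 62.7%, where the median promoter had 7 and 52.7%.

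The transcripts behind each gene value were examined next. The 10 members had 23 transcripts, of which 14 reached a mean TPM of 0.5, and none of these passed the test between the groups (limma, adjusted p = 1.0 for each). None had an unadjusted p under 0.05, beside 3.91% of the 28553 transcripts tested, and 0.021% of those had an adjusted p under 0.05. SLC30A8 had a single transcript. In SLC30A1 and SLC30A5 the main transcript carried 97.9% to 100% and 90.9% to 95.6% of the gene's TPM. SLC30A7 was split between a curated transcript, at 50.8% to 61.3%, and a predicted one, at 37.3% to 49.2%. In SLC30A9 the main transcript held 61.6% in βPrlR+/- mouse 3 and at most 80.2% in the other mice. Among the tested members SLC30A4 varied most: its lesser curated transcript held 0.0147% of the gene in βPrlR+/- mouse 2 and 26.9% in Prlr+/- mouse 2. Its share was 11.9 ± 10.8% (SD, n = 4) in βPrlR+/- and 16.3 ± 10.1% (SD, n = 3) in Prlr+/- mice, a difference smaller than either spread. The untested SLC30A2 was split further, with its predicted transcript at 100% in the βPrlR+/- mice and Prlr+/- mouse 1 and at 0.107% and 0% in Prlr+/- mice 2 and 3, all at 0.226 scaled TPM or less. Transcripts of 1 gene share most of their sequence, so such splits are estimates whose error is not in the table.

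**Figure D5:**
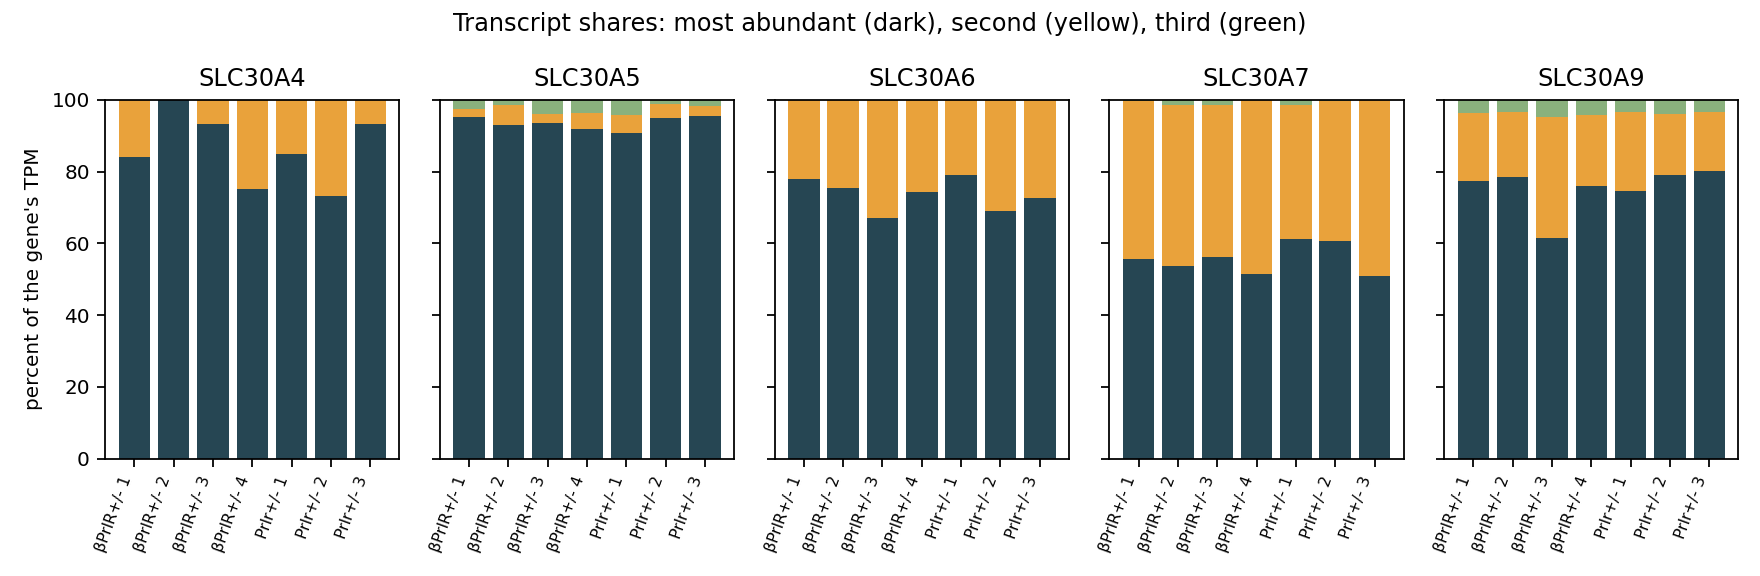
Percent of each gene's TPM carried by its most abundant (dark), the second (yellow) and the third (green) transcript in each mouse, for the 5 tested members with more than 1 transcript above 5% of the gene in any mouse. The split of SLC30A4 ranges most between mice of the same group, with the main transcript at 73.1% to 100.0%, and that of SLC30A5 is steady.

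Other genes of zinc handling were taken from a list of 20, holding the 14 SLC39 importers, 4 metallothioneins, MTF1 and TMEM163. Of the 16 tested, none had an adjusted p under 0.05, 9 lay above 0 and 7 below, and the median log2 difference was 0.018 beside 0.0042 for all genes. SLC39A7, which releases zinc from the endoplasmic reticulum, was the most abundant importer at 97.6 scaled TPM (82.1 to 106). SLC39A1, at the plasma membrane, was at 24.6 and SLC39A9 at 24.5, with log2 differences of 0.0063 and -0.097. SLC39A6, SLC39A3 and SLC39A13 were at 13.5, 12.0 and 10.1, with log2 differences between 0.030 and 0.084. Mt4 was listed at 0 in every mouse.

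A pair of the 16 listed genes tested had an unadjusted p under 0.05, beside 4.52% of all genes tested, and in each the groups did not overlap, beside 4.95% of all genes. TMEM163, a zinc efflux transporter of vesicles and the plasma membrane, had 41.2, 38.9, 40.6 and 38.3 scaled TPM under βPrlR+/- and 45.3, 46.2 and 52.7 under Prlr+/-. Every Prlr+/- mouse was above every βPrlR+/- mouse, with a log2 difference of 0.27 (standard error 0.069, adjusted p = 0.684 from limma). Mt3, a metallothionein known from neurons and glia, had 3.90, 5.17, 3.52 and 3.37 against 2.82, 2.03 and 2.42, again without overlap, a log2 difference of -0.54 (standard error 0.14, adjusted p = 0.684). Neither passed the adjusted threshold. Of 5 tested neuron markers, 2 had an adjusted p under 0.05, beside 0.0674% of all genes, and all 5 lay below 0, with a median log2 difference of -0.41. The summed scaled TPM of the listed neuron markers ran from 120 to 150.0 in βPrlR+/- and from 98.5 to 134 in Prlr+/- mice. SNAP25 alone, at 75.8, 93.5, 102 and 96.3 against 85.9, 68.5 and 92.3, made up most of each sum. The sums therefore say little about the other neuron markers. The part of neuronal RNA in the Mt3 difference was not tested.

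The genes whose levels across the 7 mice were most like those of SLC30A8, by Pearson's r on log2(scaled TPM + 1), were PCDHGA1 (r = 0.961), JUN (0.948), ZER1 (0.939), MAP4 (0.937) and TRIM44 (0.934). PCDHGA1 shares exons with the other γ-protocadherins and sat at 2.23 scaled TPM. Of 14839 genes, 14 had an r above 0.9, a number that was not set against what chance gives over 7 mice. The range of SLC30A8 is narrow. Without Prlr+/- mouse 1, the lowest for SLC30A8, the r of these 5 genes was 0.823 to 0.916. They were picked for the highest r over the same mice, so their r stays high by that choice and is a description only. Among the members themselves SLC30A5 and SLC30A6 had the highest r, 0.90, over the same 7 libraries and size factors, but it rested on Prlr+/- mouse 2 and was 0.37 without it. SLC30A1 and SLC30A8 had the lowest r of the 21 pairs of tested members, -0.73. It ran from -0.81 to -0.59 with each mouse left out, an alternative chosen after seeing the data. The pair was picked for its extreme r and each such run keeps most of the mice, so this range is a description.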

How the data were processed

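Strand-specific libraries were built from islet poly(A) RNA of 7 mice. Reads were assigned by the authors to mouse RefSeq transcripts with kallisto 0.42.4. The study names the deposited values FPKM, but each mouse sums to 1000000, so they were handled as TPM deposited by the authors, with gene values summed over transcripts. No genome build is given in the sources used here. Groups came from the label for the knock-out tissue, and mice were numbered in the order of the samples. Separate mice are the replicates. The values of the 7 mice correlated at 0.965 to 0.981 across genes, which are not independent, and no pair shared more than 1 equal nonzero value.

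TPM were divided by a median-ratio size factor over genes above 0 in every mouse. The test was limma 3.58.1 in R 4.3.3 on log2(scaled TPM + 1), for genes whose mean TPM reached 0.5 (mean-dependent variance, Benjamini-Hochberg adjustment over all genes tested, threshold 0.05, 95% intervals). The model was also run on simulated data, but the outcome is not reported here. Ratios and single members were also compared over all 35 splits of the mice (exact permutation, two-sided). Named genes were the 10 members, the listed zinc genes at a mean of at least 10 or with an adjusted p under 0.05, the 5 genes most correlated with SLC30A8, PRLR and insulin. MTF1, Mt3 and Mt4, all below that level, were named in the text after their values were seen. So were the solute carriers and the β-cell markers set beside SLC30A8. The members and lists were chosen with earlier results of these data known. Marker lists for β-, α-, δ- and PP-, acinar, duct, endothelial, macrophage, fibroblast and neuron cells were described by their counts, medians and sums. Alternatives were TPM as deposited, upper-quartile scaling, TPM without the insulin genes, a pseudocount of 0.1, no filter, a robust limma fit, the most abundant transcript, and each mouse left out in turn. Python 3.11.15, pandas 2.3.3 and matplotlib 3.10.9 were used.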

Additional observations from a re-analysis of the deposited data

Results flagged for a closer look

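SLC39A6, a zinc importer of the plasma membrane, had 1 value apart from the others of its group. Its scaled TPM was 12.0 in βPrlR+/- mouse 3 and 13.9, 13.7 and 14 in βPrlR+/- mice 1, 2 and 4. On log2(scaled TPM + 1), the gap from mouse 3 to the nearest mouse was 0.880 of the group's range, above Dixon's 95% limit for 4 samples. This was 1 of 25 genes and ratios looked at, and chance alone gives about 1 in 20. βPrlR+/- mouse 3 also had the lowest insulin share, 46.1%, and the highest sum of acinar markers, and their part in the value was not tested. No SLC30 member had such a value in the βPrlR+/- mice, and the group of 3 Prlr+/- mice is too small for this limit.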

How the results depend on the processing

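No SLC30 member and no gene of the zinc homeostasis list had an adjusted p under 0.05 in any of the 13 alternatives (limma), nor did any member's most abundant transcript. The lowest unadjusted p of a member was 0.0792. The small log2 differences did change sign. With TPM as deposited they were -0.094 for SLC30A1, -0.084 for SLC30A5, -0.076 for SLC30A6 and -0.11 for SLC30A9. Without the insulin genes SLC30A4 was at 0.00096, and by its most abundant transcript SLC30A7 was at 0.047. With a mouse left out, the differences whose sign changed ran from -0.036 (without βPrlR+/- mouse 1) to -0.035 (without Prlr+/- mouse 1) for SLC30A1, and from 0.00048 (without βPrlR+/- mouse 3) to 0.012 (without Prlr+/- mouse 2) for SLC30A4, with 0.0055 without Prlr+/- mouse 1. For SLC30A7 they were 0.0011 and 0.015 without βPrlR+/- mouse 3 or 4 and 0.071 without Prlr+/- mouse 1, and for SLC30A8 0.046 without Prlr+/- mouse 1. Over all mice left out in turn, SLC30A1 ran from -0.036 to 0.096, SLC30A4 from -0.057 to 0.012, SLC30A7 from -0.10 to 0.071 and SLC30A8 from -0.086 to 0.046. The log2 ratio of SLC30A5 to SLC30A6, 0.00011, became -0.016 without βPrlR+/- mouse 2 and -0.020 without Prlr+/- mouse 1, and ran from -0.02 to 0.020. The cause of these moves was not tested.

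The number of genes called over the whole table, 10, became 18 with a pseudocount of 0.1, 4 with no filter on low values, and between 2 (without βPrlR+/- mouse 4) and 13 (without βPrlR+/- mouse 3) when single mice were dropped. It was 5 without βPrlR+/- mouse 1, Prlr+/- mouse 1 or Prlr+/- mouse 2. The order of the members was the same with TPM as deposited and with each mouse left out. The log2 ratio of SLC30A8 to insulin stayed below 0, from -0.42 to -0.25, with exact permutation p from 0.067 to 0.20, where 3 mice against 3 cannot go below 0.10 and 4 against 2 cannot go below 0.067. No paired analysis was possible because the labels give the groups no shared replicate numbers. The TPM hold no read counts, so no counting error can be set on the low values of SLC30A2, SLC30A3 and SLC30A10.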
